A study of Mus musculus with 1470 samples.

Results

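The 10 genes described here encode the cargo of cytotoxic granules and the ligands by which lymphocytes kill or activate other cells: the granzymes Gzma, Gzmb, Gzmk and Gzmm, perforin (Prf1), the granule proteins Nkg7 and Ctsw (cathepsin W), Fas ligand (Fasl), TRAIL (Tnfsf10) and interferon gamma (Ifng). They were taken by gene symbol from a table of 14915 genes, and all 10 were found. Their expression was followed across the natural killer (NK) cells, T cells and other non-parenchymal cells of mouse liver, and between a normal diet (ND) and a high-fat diet (HFD).

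A killer lymphocyte stores granzymes and perforin in secretory granules and releases them at its contact with a target. Perforin opens the target's membrane, and granzymes, which are serine proteases, enter and cleave proteins that lead to cell death. Fas ligand and TRAIL act from the cell surface on death receptors, and interferon gamma is a secreted cytokine that activates macrophages and raises antigen presentation. The liver is rich in NK cells, in type 1 innate lymphoid cells, which unlike conventional NK cells make little or no Eomes, and in natural killer T cells.

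Full-length single-cell RNA sequencing (Smart-seq2) had been run on non-parenchymal cells of 3 ND and 3 HFD mice, male wild-type C57BL/6J animals that ate chow or, put on it as young animals, the high-fat diet for several weeks. Livers were digested by collagenase perfusion of the anesthetized animal, hepatocytes were pelleted away, and single cells were index-sorted into plates. The table held 1470 cells as reads scaled by transcript length and by the cell's mapped reads (RPKM), so that the number of reads behind each value is unknown. The median number of genes per cell was lowest in mouse HFD2 (1595.5) and highest in HFD3 (3163), and these mice also gave the most and the fewest cells.

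Cells were clustered without the 10 genes, and clusters were named from marker lists, so that "NK cells" below stands for NK-like cells and likewise for the other classes. NK cells numbered 52, with 26 from each diet and 4 to 15 per mouse. In them 6 of 8 NK markers reached 100 RPKM in at least 50% of cells, against 0 markers of every other list, but 8 of the 52 also had the T cell gene Cd3e at 100 RPKM or more. T cells made up 20.7% of all cells and were parted by a gate of 1 RPKM on Cd4 and Cd8b1 into 52 CD8, 105 CD4 and 120 negative T cells and 28 cells with both genes, which count among all T cells but form no class below. As cells that are no killer cells, 957 B, Kupffer and endothelial cells served as background, except for Tnfsf10, which endothelial cells had as well. The gate lay within the low values of such cells, since 20.3% of them had Cd4 and 17.3% had Cd8b1 at 1 RPKM or more, against 0.522% and 0.731% at 100 RPKM. Of the CD4 T cells 62.9% reached 100 RPKM of Cd4, and of the CD8 T cells 65.4% reached it for Cd8b1. Cd3e stood at 100 RPKM or more in 92.3% of CD8, 91.4% of CD4 and 79.2% of negative T cells. Of the negative T cells 5 had the NK receptor gene Ncr1 at that level and 21 had neither. HFD2 gave 54 of the 120 negative T cells, at a median of 1564 genes per cell. A level below is the mean of log2(RPKM + 1) over the cells of a class in 1 mouse, given as mean ± SD over the 6 mice, and a difference is between 2 such levels, in log2 units.

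Sequences upstream of the 4 genes whose level was higher in NK cells than in each T cell class in every mouse (Gzma, Gzmb, Prf1 and Nkg7) are shown first. They are the 250 bases before the transcription start in RefSeq (build GRCm38.p6), 5′ to 3′ on the gene's strand, and capitals mark a T-box match (TCACAC or GTGTGA) or a Runx match (TGTGGT or ACCACA), the core letters bound by Eomes and Tbx21 and by Runx3. The windows lie at chr13:113100982-113101231 (minus strand, Gzma), chr14:56262335-56262584 (minus, Gzmb), chr10:61297586-61297835 (plus, Prf1) and chr7:43436888-43437137 (plus, Nkg7).
Gzma: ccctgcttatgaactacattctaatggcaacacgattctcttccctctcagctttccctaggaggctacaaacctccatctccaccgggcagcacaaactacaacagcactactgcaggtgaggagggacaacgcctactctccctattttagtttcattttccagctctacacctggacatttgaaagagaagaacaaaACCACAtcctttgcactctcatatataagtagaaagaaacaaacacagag
Gzmb: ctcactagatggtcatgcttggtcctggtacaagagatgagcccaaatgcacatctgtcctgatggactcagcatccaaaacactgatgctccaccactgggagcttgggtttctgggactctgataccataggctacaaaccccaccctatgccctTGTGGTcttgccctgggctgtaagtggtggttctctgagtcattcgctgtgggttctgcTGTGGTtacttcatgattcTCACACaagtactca
Prf1: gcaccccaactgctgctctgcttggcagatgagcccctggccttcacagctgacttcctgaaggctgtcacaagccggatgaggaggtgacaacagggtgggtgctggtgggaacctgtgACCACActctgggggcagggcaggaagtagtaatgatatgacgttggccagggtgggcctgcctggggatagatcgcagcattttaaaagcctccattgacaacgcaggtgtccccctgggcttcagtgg
Nkg7: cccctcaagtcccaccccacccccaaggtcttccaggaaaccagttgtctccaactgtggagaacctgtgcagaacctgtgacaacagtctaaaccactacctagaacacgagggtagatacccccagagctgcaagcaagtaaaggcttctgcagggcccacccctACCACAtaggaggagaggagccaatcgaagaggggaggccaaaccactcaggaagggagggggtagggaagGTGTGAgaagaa
Searched on both strands from 250 bases before to 50 after the start, Gzmb held 1 T-box match at -15 and Runx matches at -93 and -34, and Nkg7 held a T-box match at -12 and a Runx match at -83. Gzma and Prf1 each held 1 Runx match, at -50 and -130, and no T-box match. Of all 32544 RefSeq promoters of this length, 14.3% held the T-box letters and 16.7% the Runx letters. No 2 of the matches in these windows overlapped, and a match is a description of letters only. RefSeq entries were matched for 9 of the 10 genes, all but Ctsw. Gzmk had 2 T-box matches, at -74 and -49. Gzmm had 2 entries, 1 with a Runx match at -247 and 1 with T-box matches at -188 and 5. Ifng had neither motif but a TATA match (TATAAA or TTTATA, in 13.6% of promoters) at -30, and Fasl and Tnfsf10 had none of the 3.

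The genes lie on 7 chromosomes. In the GRCm38 annotation Gzma (chr13:113093825-113100981) and Gzmk (chr13:113171608-113225908) are neighbours on the minus strand, 70626 bases apart. Prf1 (chr10:61297833-61304680), Gzmm (chr10:79689020-79695261) and Ifng (chr10:118441046-118445892) share chromosome 10 at a distance. None of the 50-base stretches of 8 of the transcripts recurred in another gene, whereas 17 of 4944 (0.344%) did for Tnfsf10 and 13.5% of 1159 for Ifng, the latter in the overlapping gene Gm49751. Gzmk also overlaps Esm1 and Ctsw overlaps Fibp, and since the counting was not stated to use strand, reads from overlapping genes cannot be told apart.

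NK cells carried the granzyme A, granzyme B and perforin program at high level in every mouse. The level of Gzma, a tryptase and the most abundant granzyme here, was 11.86, 8.06 and 13.48 in ND1, ND2 and ND3 and 9.43, 11.23 and 10.23 in HFD1, HFD2 and HFD3 (10.71 ± 1.91, SD, n = 6 mice). ND mice held both the highest and the lowest value, and the diets overlapped. The level of Gzmb, the caspase-cleaving granzyme, was 8.25, 6.14 and 6.38 in the ND and 9.53, 6.42 and 7.24 in the HFD mice (7.33 ± 1.33). For Prf1 the level was 9.15, 5.99 and 5.51 in the ND and 8.31, 7.51 and 9.84 in the HFD mice (7.72 ± 1.72). The same mouse was not high for all: ND3 had the highest level of Gzma and the lowest of Prf1.

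The granule membrane protein gene Nkg7 and the cathepsin gene Ctsw had high levels in NK cells and T cells alike. In NK cells the Nkg7 level was 12.46 ± 0.30, with 5 mice between 12.55 and 12.62 and ND1 at 11.85. In CD8, CD4 and negative T cells it was 9.74 ± 1.24, 9.57 ± 1.27 and 10.70 ± 0.51. The Ctsw level was 8.49 ± 0.87 in NK cells and 7.66 ± 1.16, 6.75 ± 1.65 and 8.16 ± 0.95 in the same T cell classes, so that NK and negative T cells lay within each other's spread. In Kupffer and endothelial cells the Nkg7 level was 4.16 and 4.11 and the Ctsw level 1.77 and 2.23.

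Granzymes K and M were nearly absent from NK cells. Gzmk was below 1 RPKM in all 52 NK cells, a zero count whose upper limit, taken as 3 cells of the total here and at every zero count, is 5.77%, and Gzmm reached 100 RPKM in 1 NK cell, of mouse ND1. Gzmm was near 0 in the T cells as well, at a level of 0.18, 0 and 0.04 in CD8, CD4 and negative T cells beside 0.12 in NK cells. In CD8 T cells Gzmk was seen at a level of 1.29, 3.85 and 0.83 in ND2, HFD1 and HFD2 and of 0 in the other mice. The gene was at or above 1 RPKM in 8 of 52 CD8 T cells, with values from 56.3 to 2737 RPKM, and 4 of these cells came from HFD1. Of the other T cells 1 CD4 T cell, 1 negative T cell and 2 T cells with both coreceptor genes passed 1 RPKM. So did B, Kupffer and endothelial cells, 2 of ND2, 7 of HFD1 and 4 of HFD3. Among these were an endothelial cell at 1704 RPKM and Kupffer cells at 291.5 and 167.4 RPKM, all of HFD3, within the range of the CD8 T cells. The rest of them stood at 56.2 RPKM or less.

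Among the death ligands, the level of Fasl was similar in size in NK cells and negative T cells. It was 4.17, 3.62 and 3.35 in NK cells of the ND and 3.82, 3.77 and 6.32 in those of the HFD mice (4.18 ± 1.09). In negative T cells it was 4.98, 4.95 and 4.44 in the ND and 4.98, 1.99 and 2.0 in the HFD mice (3.89 ± 1.48), and the CD4 and CD8 T cell levels were 2.88 ± 1.63 and 2.45 ± 1.51. HFD2 and HFD3 were the low mice in both negative and CD4 T cells. The level of Tnfsf10 in NK cells was 2.22, 3.27 and 2.57 in the ND and 1.91, 0.13 and 0.36 in the HFD mice (1.74 ± 1.25), against 0.88 ± 0.65, 1.38 ± 1.13 and 1.16 ± 0.71 in CD8, CD4 and negative T cells.

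Interferon gamma mRNA was sparse in all lymphocyte classes. The Ifng level in NK cells was 0 in ND1, ND3 and HFD1 and 2.82, 0.84 and 0.54 in ND2, HFD2 and HFD3 (0.70 ± 1.1). In CD4 and negative T cells it was above 0 in every mouse, at 1.39 ± 0.71 and 1.34 ± 0.61, and in CD8 T cells it was 0.51 ± 0.62. In descending order of the class mean, the level of Ifng thus ran from CD4 over negative T and NK to CD8 T cells, and neighbours in that order differed by less than the larger of their SDs.

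**Figure D1:**
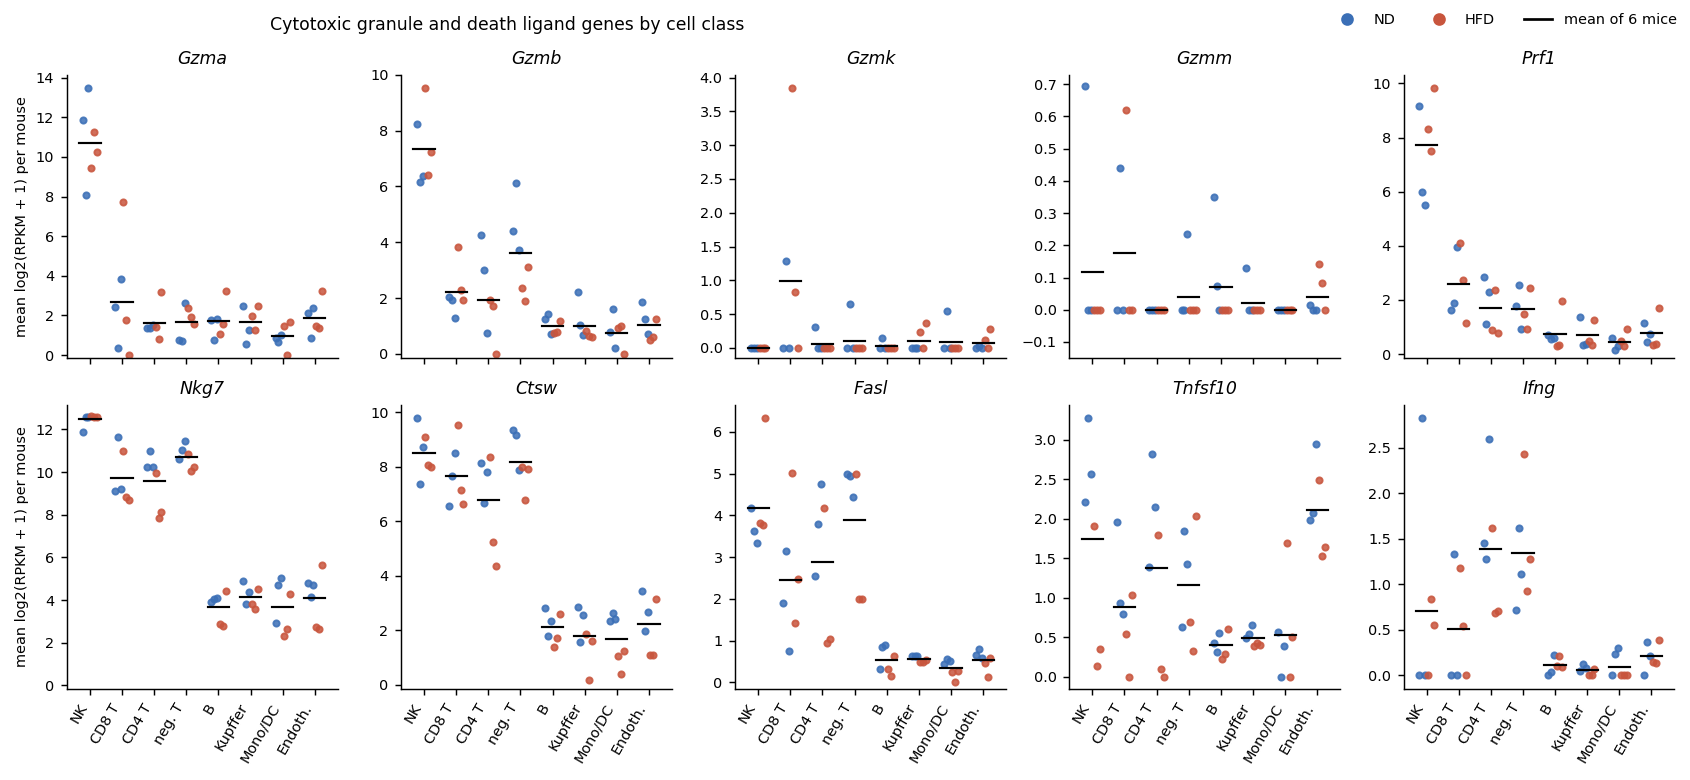
Level of each of the 10 genes, as the mean of log2(RPKM + 1) over the cells of a class (vertical axis), in NK, CD8 T, CD4 T, negative T, B, Kupffer, monocyte-derived or dendritic and endothelial cells (horizontal axis). Each point is 1 mouse (blue ND, red HFD) and the black line is the mean over mice. Gzma sits near 10.71 in NK cells and below 3 on average in every T cell class, while Nkg7 stays above 9 on average in NK and T cells.

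Counted per cell, Gzma, Gzmb and Prf1 were on in most NK cells and in a minority of T cells. A cell was counted as high at 100 RPKM or more, a cut chosen after the low background described below was seen, and exact 95% binomial intervals cover counting error only. Gzma was high in 42 of 52 NK cells (80.8%, 67.5 to 90.4%), with a median of 10425 RPKM among these cells. In CD8 T cells it was high in 6 of 52 (11.5%), all 6 from mouse HFD1, and in 1 of 105 CD4 and 4 of 120 negative T cells. In the background cells it was high in 45 of 957 (4.70%), at a median of 224.9 RPKM, so that the shares in CD4 and negative T cells lay below background, although the 4 negative T cells had a median of 2557 RPKM. The median number of genes detected was 2410 in NK cells and 2464 in background cells.

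For Gzmb and Prf1 the T cell shares stood above the background. Gzmb was high in 34 of 52 NK cells (65.4%, 50.9 to 78.0%) and in 29 of 120 negative T cells (24.2%), 14 of 105 CD4 T cells (13.3%) and 7 of 52 CD8 T cells (13.5%), against 8 of 957 background cells (0.836%). Prf1 was high in 38 of 52 NK cells (73.1%, 59.0 to 84.4%), 12 CD8 T cells (23.1%), 15 CD4 T cells (14.3%) and 9 negative T cells (7.50%), against 0.731% of background cells. Fasl was high in 38.5% of NK, 23.1% of CD8, 32.4% of CD4 and 30.8% of negative T cells, against 1 of 957 background cells (0.104%). The negative T cell shares lean on HFD2, the mouse with the fewest genes per cell. It gave 54 of the 120 cells, of which 7 were high for Gzmb and 10 for Fasl. The order of the T cell classes differed between genes: negative T cells had the highest share for Gzmb and the lowest for Prf1. Ifng was high in 15 CD4 T cells (14.3%), 11 negative T cells (9.17%), 3 CD8 T cells and 2 NK cells, against 0.209% of the background.

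**Figure D2:**
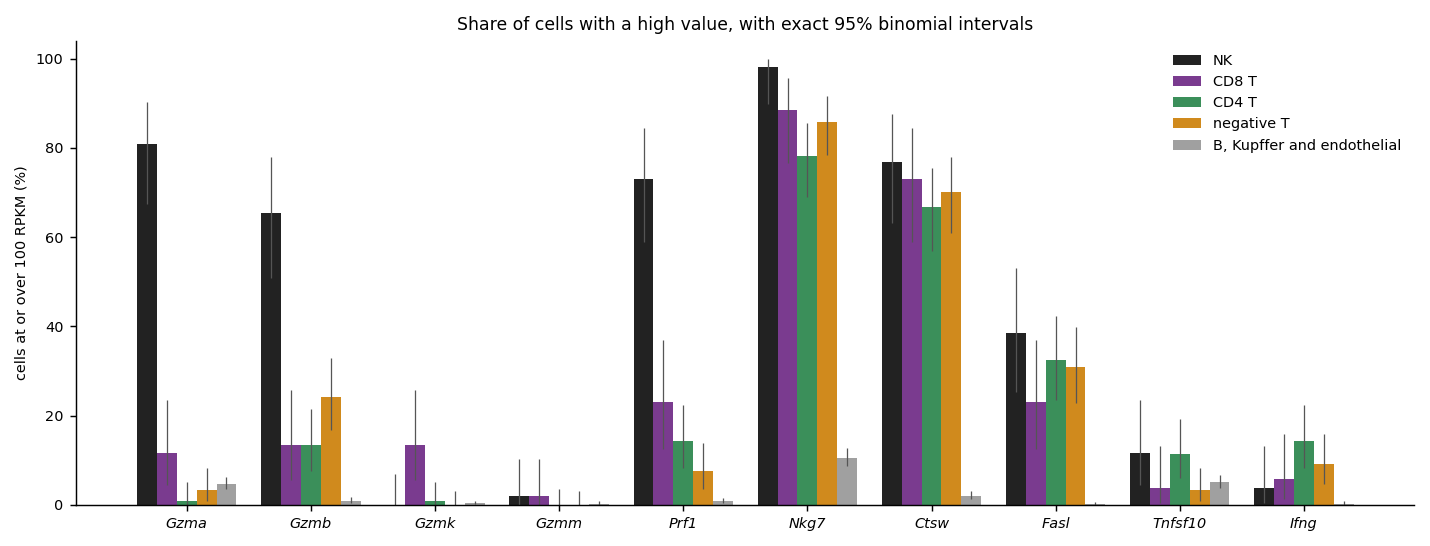
Share of cells at 100 RPKM or more for each gene, in percent (vertical axis), in NK, CD8 T, CD4 T and negative T cells and in B, Kupffer and endothelial cells pooled. Bars are shares over all cells of a class and lines are exact 95% binomial intervals. For Gzma the NK bar stands at 80.8%, whereas for Fasl it stands at 38.5%, near the 32.4% of CD4 T cells.

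Most NK cells were high for more than 1 granule gene. Of the 52 NK cells, 26 were high for all 3 of Gzma, Gzmb and Prf1, 15 for 2 of them, 6 for 1 and 5 for none. Gzma and Prf1 were high together in 35 cells, Gzma alone of this pair in 7 and Prf1 alone in 3. Of all T cells, 2 were high for all 3 genes, 14 for 2, 77 for 1 and 212 (69.5%) for none. T cells with a granule gene thus mostly had 1 of the 3: 53 were high for Gzmb without Gzma and 37 for Prf1 without Gzma. Each gene alone was high in most NK cells and in a minority of T cells, which by itself makes joint counts high in NK and low in T cells. Whether the genes met more often than their separate shares give was not tested.

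Death ligand and cytokine also met in single T cells. Fasl and Gzmb were high together in 30 T cells (9.84% of all T cells) and in 16 of 52 NK cells (30.8%). Fasl and Ifng were high together in 15 T cells, and with only 2 NK cells high for Ifng their meeting there cannot be judged. None of Gzma, Gzmb, Prf1, Fasl, Ifng and Tnfsf10 was high in 46.9% of T cells and in 2 of the 52 NK cells. Cells of 1 mouse share their source, so these counts describe cells and are not replicates.

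**Figure D3:**
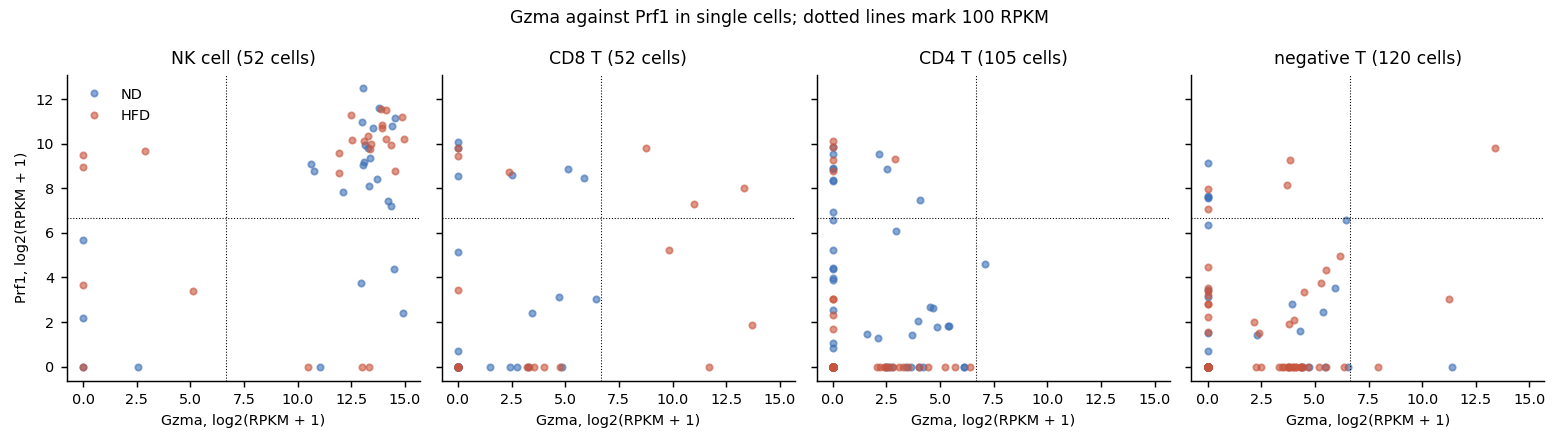
Gzma (horizontal axis) against Prf1 (vertical axis), both as log2(RPKM + 1), with 1 point per cell in NK, CD8 T, CD4 T and negative T cells, coloured by diet. Dotted lines mark 100 RPKM. In NK cells 35 of 52 points lie past both lines, and in CD4 T cells 0 of 105 do.

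A few CD8 T cells had Gzmk. Of the 8 CD8 T cells with Gzmk at 1 RPKM or more, 4 each were high for Gzma, Gzmb and Prf1 and all 8 for Nkg7. Of the 44 CD8 T cells without Gzmk, 2 were high for Gzma, 3 for Gzmb, 8 for Prf1 and 38 for Nkg7. Eomes was high in 2 of the 8 and 0 of the 44, and Cxcr6, a chemokine receptor gene, in 3 of the 8 and 25 of the 44. As 4 of the 8 cells are from HFD1, mouse and cell state cannot be told apart, and no test was run.

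Low values of the most abundant genes were spread over cells that should lack them, and for Gzma these followed the well position. At 1 RPKM or more, Nkg7 was found in 77.7% of the 957 background cells, Ctsw in 54%, Gzma in 37.4%, Gzmb in 30.5%, Prf1 in 22.3% and Fasl in 18.5%, against 3.66% for Ifng, 1.36% for Gzmk and 1.15% for Gzmm. At that cut the Gzma share was 44.2%, 37.1% and 37.5% in CD8, CD4 and negative T cells, close to the 37.4% of the background.

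Well names give a row letter and a column number, and cells outside the NK and T classes were split by whether they shared either with an NK cell of the same mouse. The Gzma level in wells that shared one was 3.13, 1.61, 3.32, 1.72, 1.66 and 5.50 in ND1 to ND3 and HFD1 to HFD3. In the other wells it was 0.02, 0.09, 0.49, 1.0, 0 and 0.34, lower in each mouse. The difference was 2.5 ± 1.57 (SD, n = 6), higher in 6 of 6 mice (exact two-sided sign-flip permutation p = 0.03125, the smallest that 6 mice allow, adjusted p = 0.104 over the 10 genes). Nkg7 (difference 1.36 ± 0.61) and Gzmb (0.69 ± 0.42) were also higher in 6 of 6 mice, with the same exact permutation p. Prf1 (0.76 ± 0.91) and Ctsw (0.60 ± 0.72) were higher in 5 of 6 (exact permutation p = 0.0625, adjusted p = 0.125), as was Fasl (0.24 ± 0.45, exact permutation p = 0.219, adjusted p = 0.365), with ND3 the other way. For Tnfsf10, Ifng, Gzmm and Gzmk the difference was between -0.03 and 0.17.

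At 1 RPKM or more Gzma was found in 54.6% of the background cells that shared and 11.3% of those that did not, whereas Nkg7 stood at 84.7% and 67.1% and Ctsw at 56.5% and 50.3%, common in both. All 45 background cells at 100 RPKM or more of Gzma sat in wells that shared a row or column with an NK cell, 45 of 577 such cells against 0 of 380 others, a zero count whose upper limit is 0.789%. In T cells the Gzma level was 2.57 in those that shared and 0.59 in the 120 that did not, but at 100 RPKM or more the shares were 3.78% and 3.33%. For Gzmb these T cell levels were 2.69 and 2.89 and for Prf1 1.84 and 2.03, not higher in the sharing wells. At 1 RPKM or more, however, Gzmb was found in 50.3% of the sharing and 40.8% of the other T cells and Prf1 in 38.4% and 27.5%. At 100 RPKM or more the shares were 18.4% and 20.8% for Gzmb and 10.3% and 18.3% for Prf1. Of the 6 CD8 T cells high for Gzma, 4 sat in sharing wells and 2 did not. The cell names carry 1 prefix per mouse, or none in HFD2, and no well name recurred within a mouse, in up to 16 rows and 24 columns. The labels name no plate, and how the low values arose was not tested.

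**Figure D4:**
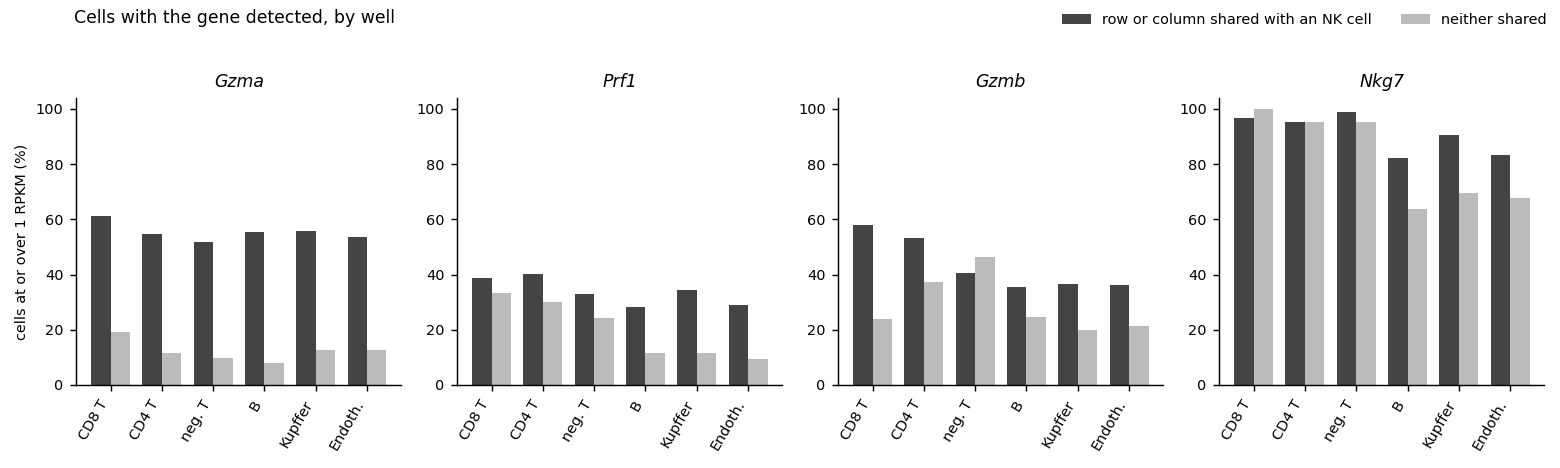
Share of cells at 1 RPKM or more, in percent (vertical axis), for Gzma, Prf1, Gzmb and Nkg7 in 6 cell classes. Dark bars are cells whose well shares a row letter or column number with an NK cell of the same mouse and light bars the other cells. For Gzma the dark and light bars stand at 55.5% and 7.84% in B cells and at 53.6% and 12.6% in endothelial cells.

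Set against each T cell class within a mouse, NK cells had the higher level of Gzma, Gzmb, Prf1 and Nkg7 in all 6 mice. Because clustering itself parted NK from T cells, these differences carry no p. The Gzma difference was 8.03 ± 3.21 to CD8, 9.10 ± 2.14 to CD4 and 9.06 ± 1.70 to negative T cells, with the smallest single value, 1.71, in HFD1 against CD8 T cells. For Prf1 the differences were 5.15 ± 2.58, 6.01 ± 2.07 and 6.04 ± 1.64, and for Gzmb 5.11 ± 0.82, 5.38 ± 1.77 and 3.72 ± 2.35. The smallest Gzmb difference to negative T cells was 0.02, in ND2, so that NK and negative T cells of that mouse had nearly the same level. For Nkg7 the differences were 2.72 ± 1.21, 2.89 ± 1.38 and 1.77 ± 0.57.

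The ligands were not set apart in this way. Fasl was higher in NK cells in 5, 3 and 2 of 6 mice against CD8, CD4 and negative T cells, at differences of 1.72 ± 1.80, 1.29 ± 2.47 and 0.29 ± 2.30. The Ifng difference was 0.19 ± 0.87, -0.69 ± 1.49 and -0.64 ± 1.2, with NK cells higher in 3, 2 and 1 of 6 mice. Tnfsf10 was higher in NK than in CD4 T cells in 6 of 6 mice, but by only 0.37 ± 0.28, and Ctsw by 1.73 ± 1.23 in 6 of 6.

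In counts, NK cells were higher in every mouse for 4 of the 7 genes that passed the filter on low values against CD8 T cells, where 2.15% of all genes tested were. Against CD4 T cells it was 6 of 8 (2.05% of all genes) and against negative T cells 4 of 8 (1.94%), and 0 were lower in every mouse in each comparison, where 5.92%, 7.02% and 6.7% of all genes were. The median difference of the genes that passed was 2.72, 2.31 and 1.17, beside -0.27, -0.21 and -0.19 over all genes. The filter was set on the mean over both classes, so that a gene as high in NK cells as Gzma, Gzmb, Prf1 or Nkg7 would have passed even at 0 in T cells, and the genes it left out were low in both.

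The result rested on how NK cells were delimited. Choosing them instead by Ncr1 at 100 RPKM or more and Cd3e below 100 RPKM, a gate added after the data were seen, gave 45 cells, 37 of them in the cluster class, with levels of 11.65 ± 1.73 for Gzma, 6.78 ± 0.99 for Gzmb, 7.79 ± 1.76 for Prf1 and 12.16 ± 0.84 for Nkg7. A k-means clustering named an NK cluster of 91 cells, of which 53 had Cd3e and 15 had Ncr1 at 100 RPKM or more and 74 came from HFD2. With that cluster only mice with at least 3 cells of both classes entered. The genes higher in every such mouse numbered 0, 2 and 0 against CD8, CD4 and negative T cells. The mean difference over these mice turned negative for Nkg7, to -0.84, -0.55 and -1.28 against these classes, and for Prf1 against CD8 T cells, to -0.69. The Gzma differences fell to 0.17, 2.44 and 0.30, those of Gzmb to 2.73, 3.41 and 0.02, and those of Prf1 against CD4 and negative T cells to 0.88 and 0.0059.

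Between the T cell classes, which a gate and not the clustering set apart, limma on the levels per mouse with mouse as a block called 0 of the 8 genes tested at an adjusted p under 0.05. Over all 4458 genes tested 0.0897% were called for CD8 minus CD4, 0.0224% for negative minus CD4 and 0.157% for negative minus CD8 T cells. At an unadjusted p under 0.05 the genes counted 1, 3 and 3 of 8, where 8.97%, 2.62% and 9.6% of all genes did. Gzmb in negative T cells had a level of 4.42, 6.12 and 3.73 in the ND and 2.35, 1.89 and 3.12 in the HFD mice (3.61 ± 1.53). In CD4 T cells its level was 4.24, 3.0 and 0.75 and then 1.95, 1.71 and 0 (1.94 ± 1.53), and in CD8 T cells 2.05, 1.94, 1.27, 3.82, 2.30 and 1.94 (2.22 ± 0.85). The Gzmb difference was 1.66 (SE 0.62) for negative minus CD4 and 1.39 (SE 0.62) for negative minus CD8 T cells (limma, adjusted p = 0.998 and 0.506), and the classes overlapped.

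Fasl differed by 1.44 (SE 0.57) between negative and CD8 T cells (limma, adjusted p = 0.439). When the gates were set at 20 RPKM, an alternative added after the data were seen, this difference was 2.33 (SE 0.54) and passed (limma, adjusted p = 0.0429). Nkg7 was higher in negative T cells by 1.13 (SE 0.45) against CD4 and 0.96 (SE 0.45) against CD8 T cells without passing (adjusted p = 0.998 and 0.513). For the granule pair Gzma and Prf1 the CD8 minus CD4 differences were 1.07 (95% interval -0.57 to 2.71) and 0.86 (-0.34 to 2.07), so that neither a lead of CD8 T cells nor its absence can be read from them. The Gzma level in CD8 T cells was 2.4, 0.34 and 3.86 in the ND and 7.72, 1.76 and 0 in the HFD mice, and the mean of 2.68 fell to 1.67 without HFD1.

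Within NK cells, Eomes was used as a gate because it parts conventional NK cells from type 1 innate lymphoid cells. In the 4 mice with at least 2 cells on both sides, 17 Eomes-positive cells had a Gzma level of 13.24, 13.41, 12.26 and 13.26 (ND1, ND3, HFD1, HFD2) and 24 Eomes-negative cells one of 10.88, 13.50, 5.67 and 9.88. The positive cells were higher in 3 of 4 mice and close to each other, whereas the negative cells ranged from 5.67 to 13.50. The difference was 3.06 (SE 1.05) and did not pass (limma, adjusted p = 0.80). The other granule genes did not share one direction, at 1.96 for Prf1 and -1.0 for Gzmb. Of the 7 genes tested 0 were called and 1 had an unadjusted p under 0.05, where 0.0263% (Eomes alone) and 4.99% of all genes did.

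Among negative T cells, Klrb1c (NK1.1), a marker of natural killer T cells, parted 77 cells with it from 43 without at 1 RPKM. Of the 77 cells 54 had it at 100 RPKM or more, and 28.3% of background cells had it at 1 RPKM or more, so that part of the cells with it lay at the level of the background. The Prf1 level was 2.15, 4.08, 0.88, 1.69, 1.26 and 3.42 in the cells with it (ND1 to ND3, then HFD1 to HFD3) and 0.23, 0, 1.05, 0.92, 0.51 and 1.64 in those without, higher in all mice but ND3. The cells with Klrb1c had higher mean levels of Ctsw (difference 2.02, SE 0.84), Nkg7 (1.58, SE 0.67) and Prf1 (1.52, SE 0.62) over 6 mice, none of which passed (limma, adjusted p = 0.824, 0.834 and 0.824). Of 8 genes 0 were called, where 0.0233% of all genes were, and 3 had an unadjusted p under 0.05, beside 5.74% of all genes.

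TRAIL mRNA was found in endothelial cells, at a level near that in NK cells. The Tnfsf10 level in the 478 endothelial cells was 1.98, 2.07 and 2.95 in the ND and 2.49, 1.53 and 1.65 in the HFD mice (2.11 ± 0.53), with overlapping diets. It was higher than in B cells by 1.71 ± 0.54, than in Kupffer cells by 1.62 ± 0.47 and than in monocyte-derived or dendritic cells by 1.59 ± 0.64, in 6 of 6 mice each. Over all genes tested, 28.4%, 30.9% and 10.3% were higher in every mouse in these comparisons. Against all T cells the difference was 0.78 ± 0.63, with endothelial cells higher in 5 of 6 mice, and against NK cells it was 0.37 ± 0.98, higher in 4 of 6. At 100 RPKM or more stood 49 of 478 endothelial cells (10.3%), 6 of 52 NK cells (11.5%) and 0 Kupffer and 0 B cells, which allow up to 1.30% and 1.21%.

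By wells, the endothelial Tnfsf10 level was 2.25 ± 0.60 where a row or column was shared with an NK cell and 1.99 ± 0.74 elsewhere, a gap smaller than either SD. It varied among the 4 endothelial clusters, with levels of 3.26, 1.12, 1.91 and 2.69 over 5, 4, 5 and 6 mice, whereas the shares of cells at 100 RPKM or more were 10.7%, 10.5%, 8.56% and 12.4%. These clusters also differed in genes detected per cell, with a median of 3595.5 in the first and 1751 in the next, and the part of that in the difference was not tested.

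The diet called none of the genes that passed the filter in the classes fitted, and Gzmk and Gzmm passed it in none of them. limma on HFD minus ND, 3 mice against 3, called 0 of the 7, 6, 8 and 8 genes that passed the filter in NK, CD8, CD4 and negative T cells, and 0.0% of all genes in each of these classes. At an unadjusted p under 0.05 stood 1, 0, 1 and 2 of these genes, beside 4.47%, 3.61%, 5.0% and 4.05% of all genes. In B, Kupffer, endothelial and monocyte-derived or dendritic cells 0 of the 4, 4, 5 and 2 genes that passed were called as well, where 0.0%, 0.0308%, 0.0% and 0.0% of all genes were. Leaving out mouse HFD3, which had the highest Nkg7 level in endothelial cells (5.65, against 2.74 and 2.65 in HFD1 and HFD2 and 4.14 to 4.78 in the ND mice), Nkg7 passed in that class (limma, adjusted p = 0.0334), as did 46 of 4045 genes. HFD1 and HFD2 were also the lowest for Nkg7 in B cells (2.89 and 2.80, against 3.90 to 4.44 in the other mice) and in Kupffer cells (3.81 and 3.57, against 3.83 to 4.88), and the part of the background in this call was not tested. In simulated data a shift of 2 log2 units was recovered for 15% of genes in NK cells and a shift of 4 for 85%, so that diet differences of a few log2 units in NK cells could be missed.

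In NK cells the diet intervals were wide. The Gzma difference was -0.84 (95% interval -3.09 to 1.42), that of Gzmb 0.81 (-1.17 to 2.78) and that of Prf1 1.67 (-0.39 to 3.74). The Tnfsf10 level given above lay below every ND mouse in every HFD mouse, at a difference of -1.89 (SE 0.86; limma, adjusted p = 0.996), and 7.55% of all genes had the HFD mice below the ND mice without overlap. With NK cells chosen by Ncr1 and Cd3e instead, the diets overlapped for Tnfsf10, at 1.33 in ND1 and 1.40 in HFD1. In cells, Tnfsf10 was at 1 RPKM or more in 13 of the 26 ND and 5 of the 26 HFD NK cells, where 16.9% of B and 21.2% of Kupffer cells had it. The HFD count was 4 of 7 cells in HFD1, 1 of 15 in HFD2 and 0 of 4 in HFD3.

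In CD4 and negative T cells the largest differences between diets were lower values in HFD mice, whereas in CD8 T cells 5 of the 6 genes tested had a higher mean in HFD mice, and none of these differences passed. Without HFD1, the mouse with the highest CD8 T cell level of Gzma, Gzmb, Prf1, Ctsw and Fasl, it was 2 of 6. Gzmb in negative T cells, with the levels given above, was lower in every HFD than in every ND mouse, at a difference of -2.30 (95% interval -3.88 to -0.73; limma, adjusted p = 0.909), where 7.94% of all genes had that order. The Fasl difference in these cells was -1.80 (SE 0.80; adjusted p = 0.998), and HFD1 overlapped with the ND mice. In CD4 T cells the Nkg7 level was 10.25, 10.98 and 10.25 in the ND and 9.95, 7.85 and 8.13 in the HFD mice, a difference of -1.85 (SE 0.75; limma, adjusted p = 0.959) without overlap, as in 9.69% of all genes. HFD2, which had the fewest genes per cell, was low in each of these, and HFD3 gave 3 CD4 T cells.

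The median difference over the genes tested was -1.47 in CD4 and -0.47 in negative T cells, beside -0.29 and -0.31 over all genes. Without 1 mouse these medians ranged from -1.94 (without HFD1) to -0.79 (without HFD3) in CD4 and from -0.74 (without ND1) to -0.21 (without HFD2) in negative T cells. In CD8 T cells the median was 0.57, beside -0.21 over all genes, and it turned to -0.60 without HFD1, ranging from 0.30 (without ND2) to 1.28 (without HFD3) when another mouse was left out. Whether the diet difference itself differed between NK and T cells was also fitted. For Gzmb it was higher by 1.97 (SE 0.90) in NK than in all T cells (limma, adjusted p = 0.881), but with the k-means NK cluster this value turned to -3.54. Against all T cells 0 of 7 genes and 0.0% of all genes were called, with 1 of 7 and 5.35% at an unadjusted p under 0.05. Against CD8 T cells 0 of 7 and 0.0% were called, with 0 of 7 and 5.13% at an unadjusted p under 0.05.

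**Figure D5:**
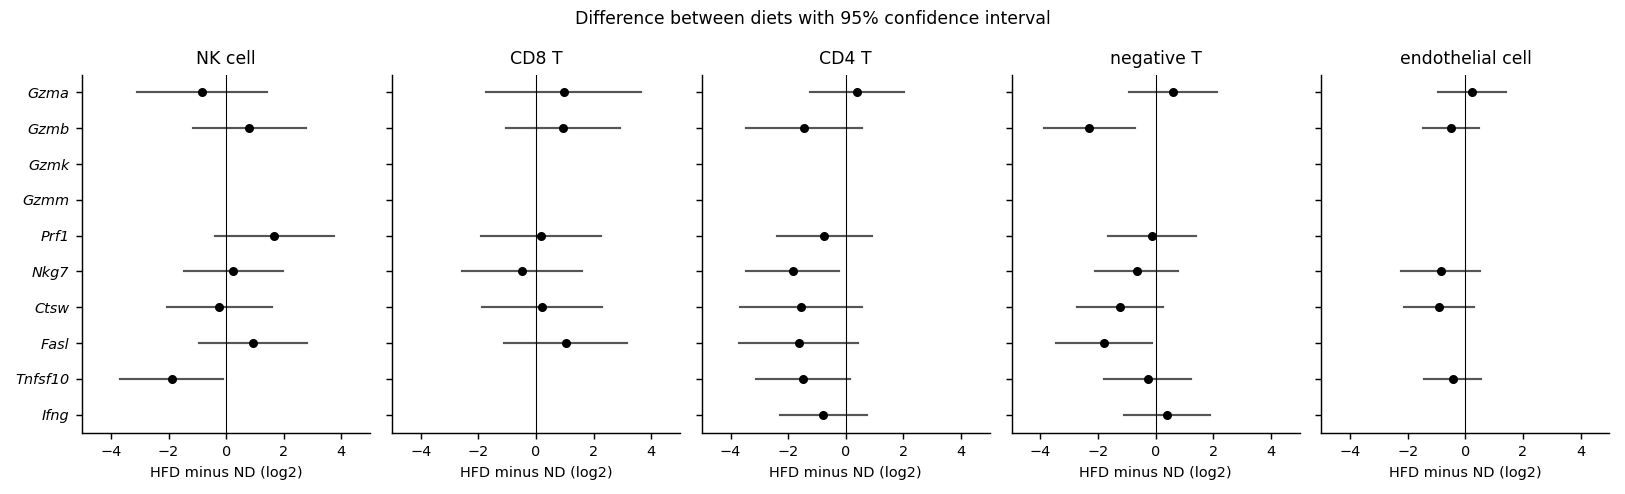
HFD minus ND difference in the level of each gene that passed the filter, in log2 units (one axis), by gene and cell class, with 95% intervals from limma (3 mice per diet). Intervals that leave out 0 belong to Tnfsf10 in NK cells (-1.89), Nkg7 in CD4 T cells (-1.85) and Gzmb (-2.30) and Fasl (-1.80) in negative T cells, none with an adjusted p under 0.05.

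Further genes of the same pathways, 61 in 10 lists, were set between NK and all T cells. Of the 39 that passed the filter on low values 4 were higher and 4 lower in every mouse, where 2.19% and 7.81% of all genes that passed it were. The count of lower genes was thus near the share over all genes. The counts by list below are over all 61, and with no filter 0.724% of all genes were higher and 6.24% lower. Only 4146 of all 14915 genes passed the filter, beside 39 of the 61, so that these unfiltered shares are no like measure for the lists. Gzmc, Tnfsf11, Zeb2, Zbtb16, Fadd and Jak2 among the genes named did not pass. Of the granule content and processing genes 1 of 7 was higher in every mouse, the lysosomal protease gene Ctsd (level 9.40 against 7.72), and 1 was lower, Srgn, the proteoglycan core on which granzymes are packed (difference -1.2 ± 1.16). Of 8 granule release genes 0 were higher and 1 was lower, Lyst, which controls the size of lysosome-related granules (-1.93 ± 0.97). Among granzyme inhibitors, Serpinb9, the inhibitor of granzyme B, was higher in every mouse (3.54 against 1.32), the only 1 of 4. The only further granzyme of the table, Gzmc, was higher too, at 1.28 against 0.14.

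The secreted and surface factors followed. Of 4 killer cell chemokines 2 were higher in NK cells in every mouse: Ccl5 (level 14.03 against 10.24) and Ccl4 (difference 2.12 ± 1.58). Of 6 other TNF family ligands 0 were higher and 3 were lower: Ltb, a subunit of lymphotoxin (-4.46 ± 1.98), Cd40lg, the helper signal to B cells and macrophages (-2.85 ± 0.47), and Tnfsf11 (-0.63 ± 0.13). Of 9 transcription factors 1 was higher, Zeb2 (1.09 ± 0.84), and 1 lower, Zbtb16, the factor of innate-like T cells (-0.51 ± 0.28). The lists of death receptors and caspases, of interferon gamma signaling and of receptors that induce interferon gamma held 0 higher and 1 (Fadd of 9), 1 (Jak2 of 6) and 0 (of 7) lower genes. In the limma fits between T cell classes and diets, the transcription factor Id2 was the only list gene called, higher in negative than in CD8 T cells by 3.03 (SE 0.48, adjusted p = 0.00734).

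Across 68 levels of 13 cell classes and 6 mice, each gene was matched with the genes of most similar pattern by Pearson r, as a description over values that share mice and classes. Nearest to Gzma were Ncr1 (r = 0.93), Adamts14 (0.91) and Klre1 (0.89), to Prf1 Klre1 (0.91), Ncr1 (0.89) and Klrk1 (0.88), and to Gzmb Klrk1 (0.83), Klrb1c (0.82) and Klre1 (0.81), most of them NK cell receptors. Nkg7 and Ctsw lay nearest to Il2rb (0.96 and 0.94), the receptor chain for interleukin 2 and 15, followed by Ccl5 (0.95) for Nkg7 and Ms4a4b (0.92) for Ctsw. Fasl lay nearest to Ccl5 (0.86) and Ifng to Cxcr3 (0.73), a chemokine receptor. For Tnfsf10 the nearest gene was Myo6 (0.67). For Gzmk and Gzmm, seen in few cells, the nearest genes were Gm10857 (0.90) and Ffar3 (0.90). Among the 10 genes themselves, r was 0.87 for Gzma and Prf1, 0.81 for Gzmb and Prf1 and 0.70 for Gzma and Gzmb.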

How the data were processed

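The authors aligned single 50-base reads to the mm10 mouse genome with STAR and deposited 1 table of RPKM values per gene and cell (the submitters' processing notes name STAR, bcl2fastq and mm10). Poor cells and doublets had been removed before deposit. The mouse was the replicate, and its value for a class was the mean over cells of log2(RPKM + 1). Cells were clustered on 1000 variable genes, 20 principal components and a 15-neighbour graph into 17 clusters (scikit-learn 1.9.0, numpy 2.4.6, scipy 1.17.1, Python 3.11.15), leaving out the 10 genes and the 61 pathway genes, and clusters were named from marker lists. Differences were fitted with limma 3.58.1 (R 4.3.3) over all genes with a mean of at least 1, in mice with at least 3 cells of a class (2 for the Eomes and Klrb1c gates), with Benjamini-Hochberg adjustment over all genes tested. Classes parted by clustering were compared without a test. The genes and lists were chosen with earlier results of these data known. The genes named are the 10, the list genes called or, where none is called, those with the highest mean (list genes different from T cells in every mouse were named after their values were seen), gate genes and the 3 genes of most similar pattern. Cxcr6 was named besides these, in the split of CD8 T cells by Gzmk. The limma step was checked on simulated data. Alternatives covered the pseudocount, gates, filters, clustering, variance model, mouse left out and the replicate block. No plate, batch or reads per cell are named in the sources used here. The cell names carry 1 number as a prefix in each mouse but HFD2, consecutive in HFD3, ND1 and ND3 and in HFD1 and ND2, with no meaning given, and the labels do not say whether a replicate number marks anything shared between diets. A further gate on CD8 T cells was planned and is not reported here.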

Additional observations from a re-analysis of the deposited data

Results flagged for a closer look

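Of 48 sets of 6 mouse levels examined, 9 had 1 mouse far from the other 5 by Dixon's criterion, which chance alone meets in about 1 of 20 sets of normally distributed values. Where the other 5 mice stand at 0 any value meets it, so that the 9 cannot be set against that rate. All values are mean log2(RPKM + 1). In NK cells, Fasl stood at 6.32 in HFD3 (next 4.17), Ifng at 2.82 in ND2 (next 0.84), Nkg7 at 11.85 in ND1, below the next value of 12.55, and Gzmm at 0.70 in ND1 with all other mice at 0. HFD3 gave 4 NK cells and ND2 gave 7. In CD8 T cells, Gzmk stood at 3.85 in HFD1 (next 1.29), and in CD4 T cells Gzma stood at 3.17 in HFD3 (next 1.54), a mouse with 3 CD4 T cells. Gzmk stood at 0.31 in CD4 T cells of ND1 and at 0.64 in negative T cells of ND2, and Gzmm at 0.24 in negative T cells of ND3, each with all other mice at 0, so that single cells set these values.

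The T cells with both Cd4 and Cd8b1 at 1 RPKM or more were part of all T cells but formed no class in the comparisons above. Of these 28 cells 9 (32.1%) had Gzmb at 100 RPKM or more, against 0.836% of the background cells, 24.2% of negative and 13.3% of CD4 T cells. However, 9 of the 28 came from ND1 and 12 from ND2. In ND1 and ND2 Gzmb was at that level in 6 of 15 and 4 of 8 negative T cells and in 8 of 26 and 3 of 14 CD4 T cells. The pooled shares thus compare different mixes of mice. Only 3 mice gave at least 3 cells with both genes, with Gzmb levels of 5.25, 5.60 and 0 in ND1, ND2 and HFD1. The level of Cd8b1 in them was 3.85, against 7.91 in CD8 T cells, and that of Cd4 was 5.08, against 6.66 in CD4 T cells.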

How the results depend on the processing

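The number of reads per cell is unknown and most classes gave few cells per mouse, so that absence of a call does not show absence of a difference. Of the values that answer a comparison, 87.3% kept their size under an alternative and 47 moved. Of those for single genes, 1362 stayed, 8.34% moved, 2 newly passed the threshold (Fasl between T cell classes and Nkg7 in endothelial cells without HFD3, given above) and 9 reversed.

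Between T cell classes 12 genes were called, but 7 with a pseudocount of 0.1, 82 with gates at 20 RPKM (1 of the 10 genes among them), 7 with Cd8a or Cd8b1 as the CD8 gate, 6 with each gene's own variance, 54 with weights by cell number, 6 without the mouse block and 6 to 19 without 1 mouse (the 10 genes 0 to 0). For the Eomes gate 1 gene was called, and 0 with log2 of the mean RPKM, with cells of at least 2000 genes, with no filter and with own variance, and 0 to 1 without 1 mouse. For the Klrb1c gate 1 was called, 2 with k-means and 1 to 1 without 1 mouse.

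For diet, over all classes, 1 gene was called, and 0 with a pseudocount of 0.1, log2 of the mean RPKM, no filter, own variance or the replicate block, and 7 with a variance trend. Without 1 mouse it was 0 to 47, the highest without HFD3 (the 10 genes 0 to 1, and 0 to 0 for diet by class). The replicate numbers were shared by name only: the correlation of same-numbered mice's deviations ran from -0.25 (endothelial cells) to 0.20 (B cells) over classes and numbers, was 0.03, -0.03 and 0.02 in NK cells and passed 0.1 for all 3 numbers in no class, and the block changed no call of the 10 genes. In simulated diet data over all T cells, 65% of genes shifted by 2 log2 units were recovered.

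Levels in NK cells moved with log2 of the mean RPKM and with k-means, to 13.25 and 3.99 for Gzma, 10.41 and 4.64 for Gzmb (5.65 with 10 principal components), 9.67 and 2.62 for Prf1 and 12.82 and 10.25 for Nkg7, and for Nkg7 in all T cells to 11.60 and 10.81. Tnfsf10 in endothelial cells moved to 0.23 with a pseudocount of 0.1 and 4.96 with log2 of the mean. Without 1 mouse the levels ranged from 10.16 to 11.25 (Gzma), 6.89 to 7.56 (Gzmb), 7.29 to 8.16 (Prf1) and 12.43 to 12.58 (Nkg7) in NK cells, 10.06 to 10.35 (Nkg7 in all T cells) and 1.94 to 2.23 (Tnfsf10 in endothelial cells). The genes higher in NK cells in every mouse were 4 to 5 against CD8, 6 to 6 against CD4 and 4 to 5 against negative T cells without 1 mouse, 0, 2 and 0 with k-means, and 3 against CD4 T cells with 10 principal components. Under another clustering the levels and counts cover only mice with at least 3 cells of a class. HFD2 gave 74 of the 91 NK cells with k-means and 18 of the 27 with 10 principal components. The well difference of Gzma ranged from 1.97 to 2.86.

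Reversed with k-means were the NK minus T differences of Prf1 against CD8 T cells (-0.69) and of Nkg7 against CD8, CD4 and negative T cells (-0.84, -0.55 and -1.28) and Gzmb in diet by class, NK cell minus all T (-3.54), and, among wells, background by well: Gzmm (-0.0224 without ND1, the range over mice left out being -0.0224 to 0.0336) and background by well: Ifng (-0.60 percentage points in cells at 1 RPKM or more, -0.0009 without HFD1 and -0.0273 without HFD3, the range over mice left out being -0.0273 to 0.0395). The cause was not tested.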

Other observations

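Adamts14, named above as the gene next in pattern to Gzma after Ncr1, is an extracellular metalloprotease gene and the annotated neighbour of Prf1 on chromosome 10, on the opposite strand and 24394 bases away. Its level in NK cells was 6.02, 1.21 and 5.98 in the ND and 6.59, 4.08 and 5.02 in the HFD mice (4.82 ± 1.98, SD, n = 6), with ND2 alone low. It stood at 100 RPKM or more in 23 of 52 NK cells (44.2%), in 1 of 52 CD8, 0 of 105 CD4 and 1 of 120 negative T cells, and in 0 of 957 B, Kupffer and endothelial cells, a zero count whose upper limit is 0.313%. The gene was chosen for its likeness to Gzma, so its NK level is a description with no test.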
